A study of Mus musculus with 18 samples.

Results

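The genes described here were 41 genes of glycolysis, the pentose phosphate pathway and the hypoxia-inducible factor (HIF) pathway, taken by symbol from a table of 25926 genes. They were measured in macrophages grown from C57BL/6J bone marrow (BMDMs) in coculture with renal tubular epithelial cells (TECs). All 41 were found, 1 of them (Aldoa) in a pair of rows of which the higher was used. They were listed by pathway, by a rule that names symbols and no measured value, though with earlier results of these data known. By role, 5 are glucose and lactate carriers, 7 act between hexokinase and phosphofructokinase, 4 make or remove fructose bisphosphates, 9 act from aldolase to pyruvate kinase, 5 handle pyruvate, 4 belong to the HIF pathway and 7 to the pentose phosphate pathway. In each comparison 39 of the 41 were tested, while Slc2a3 and Fbp1 lay below the filter of a mean of 1 FPKM.

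Glycolysis splits glucose into pyruvate in the cytosol and yields ATP without oxygen. Macrophages exposed to inflammatory stimuli are known to take up more glucose and to release lactate. The oxidative arm of the pentose phosphate pathway makes NADPH, and its non-oxidative arm exchanges sugars with glycolysis and supplies ribose for nucleotides. HIF-1α, which is hydroxylated by prolyl hydroxylases and then marked for degradation by the Vhl protein, is a transcription factor that binds near many genes of glycolysis when it is stable.

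RNA-seq libraries came from 18 samples in 3 groups of 6, called NC, COM and COM+Met. BMDMs were grown for 7 days with M-CSF at 50 ng/mL and placed in a Transwell insert (0.4 μm pores) above TECs cultured from kidneys of wild-type mice. In NC, PBS was given and the TECs saw no crystals. In COM, the TECs were exposed for 24 h to calcium oxalate monohydrate crystals (COM) at 100 μg/mL. COM+Met samples had the same exposure and, on the BMDMs, 5 mM of an agent that the labels call Met and do not spell out. The labels give no age or sex of the mice and leave unsaid whether samples within a group are from different mice or cultures, so p-values reflect the spread among these samples, and that spread could be technical. In bulk RNA, a change in the mix of cells and a change of RNA per cell cannot be told apart.

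The values deposited were FPKM, fragments scaled to gene length and to the total of each sample, so levels can be set side by side between genes but the read depth is unknown. A change is given as a difference in mean log2(FPKM + 1) with its standard error, which understates the change of low genes. It was tested with limma over all genes tested, and a gene is said to have risen or fallen where the Benjamini-Hochberg adjusted p was below 0.05. The median of all genes moved by -0.27 from NC to COM and by -0.26 from NC to COM+Met, against 0.0033 from COM to COM+Met. Many changes from NC are therefore also given relative to that median, and median-of-ratios size factors, which remove it, were run beside them.

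Macrophage markers were present in every group, with 9 of 10 at a mean of at least 1 FPKM (Cd163 was the exception) and a summed level of 11204 to 15674 FPKM in NC, 10603 to 14296 in COM and 12314 to 17052 in COM+Met. Most of that sum was Lyz2 (means of 11610, 9517 and 12776 FPKM), and the markers did not move together. From NC to COM, Adgre1 (112 to 577 FPKM), Fcgr1 (8.05 to 83.7) and Cd14 (64.7 to 401) rose. Mrc1 (79.9 to 3.26) and Mertk (19.0 to 9.93) fell, and the other 4 tested did not pass. Of 19 tubular epithelial markers, 1 (Cdh1, 12.9 FPKM in NC) reached a mean of 1 FPKM in any group, and their sum was 11.0 to 18.4, 0.49 to 1.37 and 0.06 to 0.33 FPKM in the 3 groups in that order. Proliferation markers summed to 201 to 432, 17.7 to 33.3 and 21.6 to 25.2 FPKM, and 10 of 10 fell in COM against NC. The 13 neutrophil markers summed to 550 to 1066, 1181 to 1859 and 734 to 856 FPKM, with Lcn2 alone rising in COM (23.5 to 1133 FPKM). S100a9 (171 to 8.43 FPKM), Ngp (30.9 to 1.60), Ltf (2.68 to 0.156) and Cxcr2 (2.26 to 0.361) fell, the median change of the 9 tested was -1.13, and Ly6g, Elane, Mpo and Retnlg were at 0 in every COM library. Stromal markers summed to 16.6 to 65.1, 5.40 to 37.5 and 3.39 to 8.2 FPKM. In COM against NC, 4 of the 6 stromal markers tested fell, while Pdgfrb rose (1.06 to 4.81 FPKM). The part of these cells and of cell division in the changes below was not tested. The COM group was not uniform. COM-1 to COM-3 resembled each other, COM-4 and COM-5 differed from them in many of the genes described here, and COM-6 stood apart from both, while in NC the samples NC-5 and NC-6 differed from the other 4. Values without these libraries are given beside the results they move most.

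Promoters of 3 genes that recur below show the letters to which HIF and related factors are known to bind. RefSeq (GRCm38.p6) gave a window of 300 bases, 250 before and 50 after each start, for 40 of the 41 genes, and 56 windows in all. Some windows of the same gene overlap, as in Aldoa, Eno1, Pfkm and Pfkfb2, so some bases were counted more than once. ACGTG or GCGTG, the core of the HIF response element, was read on either strand, with CACGTG, a sequence bound by Myc and related factors, counting as a match on both strands. It was present in 44 of the 56 windows (78.6%), against 43.8% of all 32851 windows. ACGTG alone was in 44.6% against 19.6%. The windows of these genes also had a higher GC content, with a median of 60.8% against 52.7%, and its part in the difference was not tested. The 250 bases before the start are shown for Pfkfb3 and Hk3, which rose most in COM, and for Ldha, which had the window with most matches. Where a gene had more than 1 window, the window with most matches was chosen. The other window of Pfkfb3 (chr2:11553880-11554179) held 1 match, and that of Ldha (chr7:46846832-46847131) held 2. All run 5′ to 3′ with matches in capitals. They lie at chr2:11502091-11502340 (minus strand, inside the gene, at an internal start) for Pfkfb3, chr13:55021386-55021635 (minus strand) for Hk3 and chr7:46845554-46845803 (plus strand, also at an internal start by GENCODE M21) for Ldha.
Pfkfb3: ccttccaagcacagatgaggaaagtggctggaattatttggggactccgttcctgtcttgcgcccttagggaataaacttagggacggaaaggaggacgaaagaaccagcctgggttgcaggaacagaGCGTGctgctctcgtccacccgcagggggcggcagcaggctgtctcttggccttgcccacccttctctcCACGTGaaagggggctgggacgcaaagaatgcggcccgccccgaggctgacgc
Hk3: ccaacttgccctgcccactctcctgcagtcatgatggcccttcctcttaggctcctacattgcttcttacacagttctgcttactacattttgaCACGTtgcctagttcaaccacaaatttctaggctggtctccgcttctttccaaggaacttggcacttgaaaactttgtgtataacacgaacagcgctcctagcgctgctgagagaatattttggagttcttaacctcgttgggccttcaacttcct
Ldha: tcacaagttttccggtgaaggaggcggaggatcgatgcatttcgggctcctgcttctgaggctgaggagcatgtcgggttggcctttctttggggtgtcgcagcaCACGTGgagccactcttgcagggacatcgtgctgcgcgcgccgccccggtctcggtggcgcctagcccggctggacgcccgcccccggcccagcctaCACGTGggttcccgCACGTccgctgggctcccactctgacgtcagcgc
The printed stretches hold 3 matches for Pfkfb3, 1 for Hk3 and 5 for Ldha, and the whole windows hold 4, 1 and 7. A match is a string of letters and not a measured binding site. Whether the number of matches goes with the changes given below was not tested.

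The first comparison, COM against NC, asks how BMDMs over crystal-exposed TECs differed from those over untreated TECs. The steps of glycolysis did not move together. At the entry and at the control points, some isoforms rose (Hk2, Hk3, Pfkl and Pfkfb3). Other isoforms of the same steps fell (Pfkp and Pfkfb2) or did not pass the test (Hk1, Pfkm and Pfkfb4). Most enzymes of the lower steps did not pass either. Ldhb, Pdk1 and Pdha1 of the pyruvate branch fell, together with most of the non-oxidative pentose phosphate arm. In all, 8 of 39 rose and 11 fell. Over all 10900 genes tested 12.7% rose and 40.6% fell, so the share that rose was above and the share that fell below that of all genes. With size factors the counts were 11 and 7, beside 2559 and 2579 of the 10900 genes. The groups of 6 did not overlap for 13 members, 4 higher and 9 lower in COM, against 38.2% of all genes. The median change of the 39 was -0.15, or 0.12 relative to all genes.

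**Figure D1:**
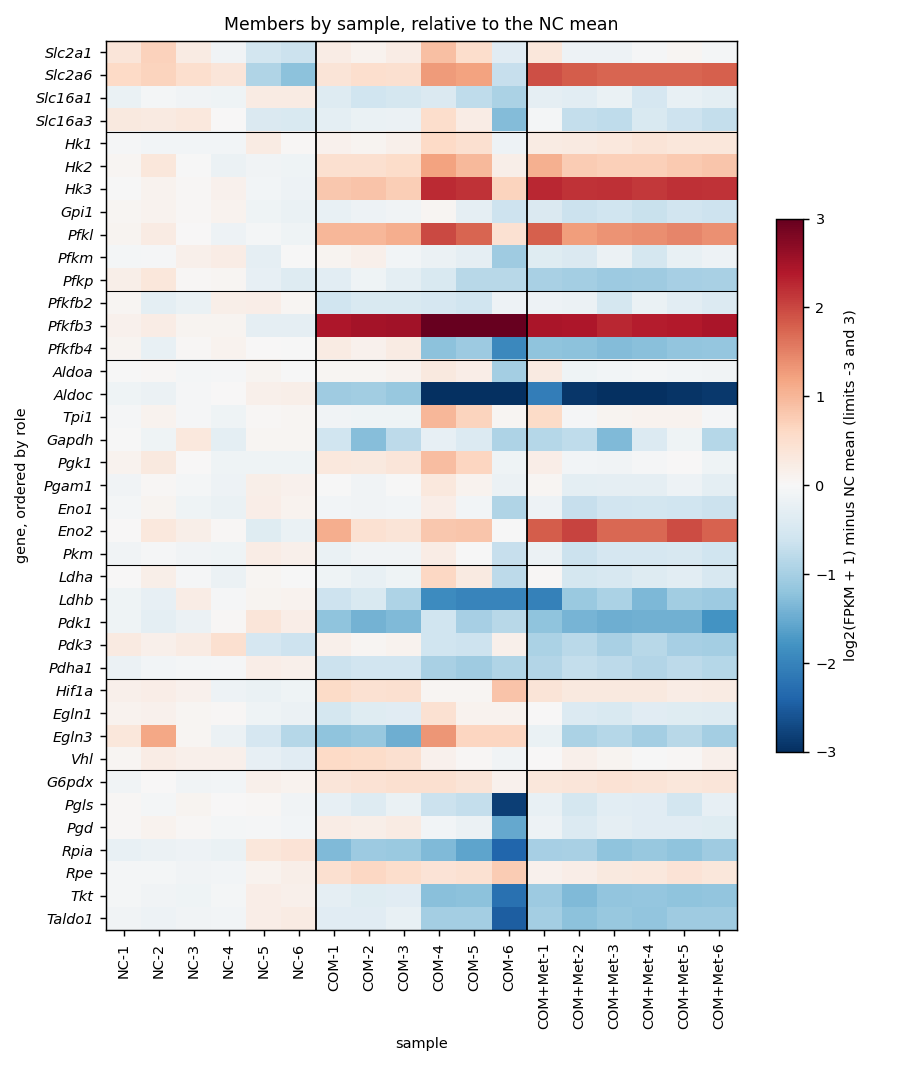
Each of the 39 tested genes (rows, ordered by role) in each of the 18 samples (columns), as log2(FPKM + 1) minus the NC mean, with colours limited to -3 and 3. Pfkfb3 and Hk3 are red across COM and COM+Met and Aldoc is blue, and the columns COM-4 and COM-5 differ from COM-1 to COM-3, with COM-6 unlike both.

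Among the carriers, Slc2a1 encodes GLUT1, the main glucose carrier of many cells. It ranged from 23.8 to 61.6 FPKM in NC (median 40.0), from 29.7 to 72.0 in COM (median 44.2) and from 34.0 to 47.7 in COM+Met (median 36.4). The groups overlapped, and the change from NC to COM was 0.28 ± 0.25 (SE, n = 6, limma, adjusted p = 0.37). Without NC-5 and NC-6 its sign turned, to -0.022. Slc2a6, which encodes the lysosomal hexose carrier GLUT6, was the most abundant carrier of glucose here, at 33.3 to 127 FPKM in NC (median 108) and 48.7 to 194 in COM (median 112). Its change of 0.53 ± 0.40 did not pass the test either (limma, adjusted p = 0.28), and it was -0.0049 without NC-5 and NC-6, whose values of 42.0 and 33.3 lay below the 103 to 127 of the other 4. Slc2a3 (GLUT3) had 0.853 to 1.18 FPKM in NC, 0.140 to 0.364 in COM and 0.216 to 0.436 in COM+Met, and was too low to be tested. Of the monocarboxylate carriers that move lactate, Slc16a1 (MCT1) fell from 3.48 ± 0.62 to 1.95 ± 0.42 FPKM (SD, n = 6), a change of -0.60 or -0.33 relative to all genes, with no overlap of the groups (limma, adjusted p = 0.0014). It was -0.38 with size factors, and did not pass with quantile normalisation (-0.26, limma, adjusted p = 0.072). Slc16a3 (MCT4), the form linked to lactate export, had 54.3 FPKM in NC and 49.2 in COM, a change of -0.20 ± 0.27 that turned to 0.11 with size factors.

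Hexokinases, which trap glucose as glucose 6-phosphate, differed by isoform. Hk3, the isoform typical of myeloid cells, lay between 41.9 and 51.5 FPKM in NC (median 47.4) and between 75.9 and 226 in COM (median 85.2). Every COM sample was above every NC sample, and COM-4 (226) and COM-5 (214) were far above the other 4 (75.9 to 86.7). Hk3 rose by 1.25 ± 0.28, or 1.52 relative to all genes (limma, adjusted p = 0.0023). The rise was 0.81 from COM-1 to COM-3 alone and 1.69 from COM-4 to COM-6 alone. Hk2, the inducible isoform, lay between 12.9 and 18.9 FPKM in NC (median 14.1) and between 16.7 and 35.0 in COM (median 21.5). Its groups overlapped through COM-6 alone, and it rose by 0.64 ± 0.16, or 0.91 relative to all genes (limma, adjusted p = 0.0055). Hk1, the housekeeping isoform, had 21.7 and 25.6 FPKM in NC and COM and passed the test with size factors but not without (0.21 ± 0.13, limma, adjusted p = 0.18).

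Phosphofructokinase-1 commits sugar to glycolysis, and its isoforms moved in opposite directions. Pfkl, the liver type, rose from a range of 16.2 to 21.6 FPKM in NC (median 17.9) to 25.4 to 74.8 in COM (median 38.6), with no overlap. The change was 1.21 ± 0.22, or 1.48 relative to all genes (limma, adjusted p = 0.00055). Pfkp, the platelet type, lay between 24.8 and 41.3 FPKM in NC (median 33.9) and between 17.8 and 30.0 in COM (median 24.6). It fell by 0.47 on the log2 scale, or by 0.20 relative to all genes, with overlapping groups (limma, adjusted p = 0.022). That fall did not pass with size factors (-0.17, limma, adjusted p = 0.30), nor from COM-1 to COM-3 alone (-0.24, limma, adjusted p = 0.19), and the shared stretch of its locus with Pitrm1 leaves some of its reads uncertain. Pfkm, the muscle type, had 4.02 and 3.40 FPKM, and Gpi1, the isomerase between hexokinase and phosphofructokinase, had 147 and 127 FPKM. Neither passed the test, and the sign of both turned with size factors (0.0077 and 0.10).

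The largest change was in Pfkfb3, whose product makes fructose 2,6-bisphosphate, the strongest activator of phosphofructokinase-1. It lay between 5.60 and 8.28 FPKM in NC (median 7.35) and between 41.2 and 76.2 in COM (median 55.9). No sample of either group came near the other, and Pfkfb3 rose by 2.82 ± 0.17, or 3.09 relative to all genes (limma, adjusted p = 9.11e-08). The rise was 2.48 from COM-1 to COM-3 alone and 3.17 from COM-4 to COM-6 alone. Its relatives did not rise with it. Pfkfb2 fell from 5.17 to 3.48 FPKM (-0.46 ± 0.12, or -0.19 relative to all genes, limma, adjusted p = 0.0051), a fall that did not pass with size factors (-0.20, limma, adjusted p = 0.27). Pfkfb4 had 18.9 to 23.7 FPKM in NC, 24.4 to 26.6 in COM-1 to COM-3 and 5.11 to 9.79 in COM-4 to COM-6, so that its mean change of -0.60 ± 0.34 did not pass (limma, adjusted p = 0.16) and has a different sign in COM-1 to COM-3 and in COM-4 to COM-6. Fbp1, which runs this step backwards in gluconeogenesis, was at or below 0.128 FPKM in all 18 samples.

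**Figure D2:**
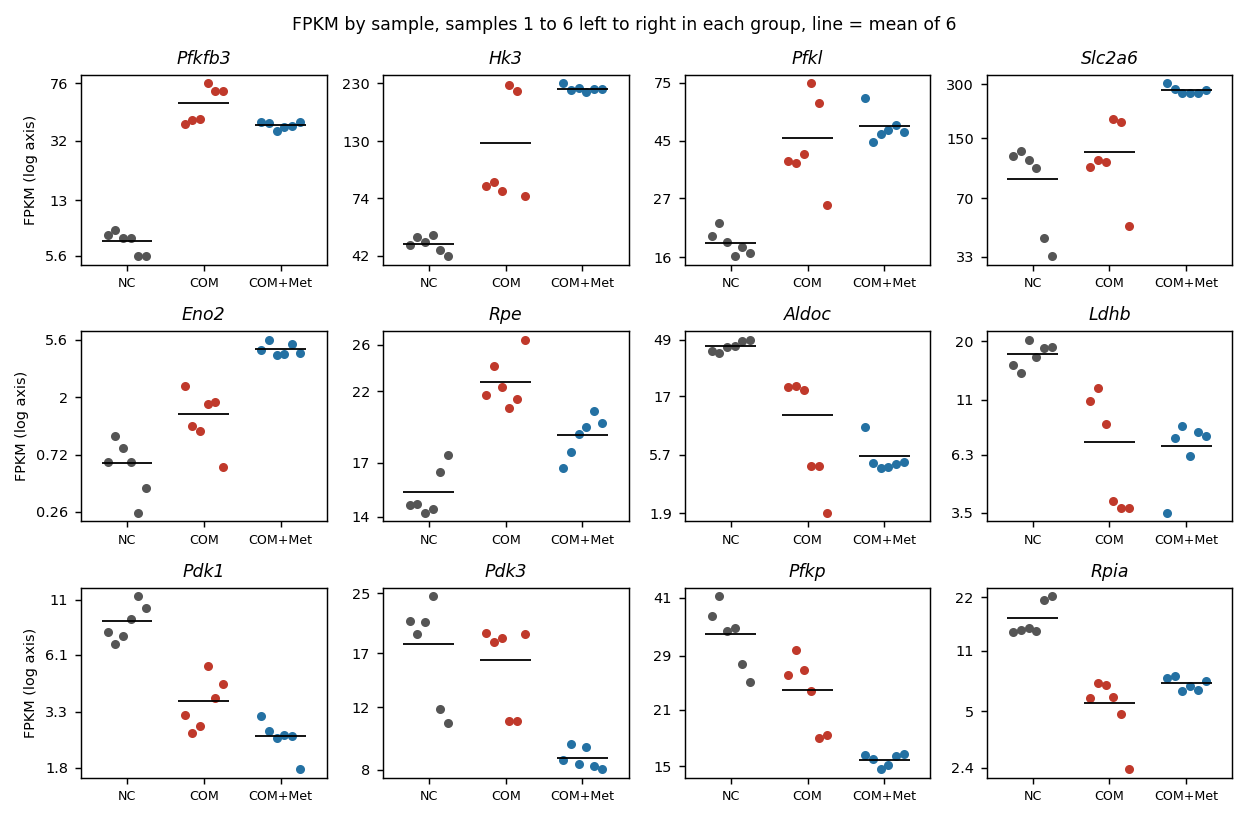
FPKM on log axes for 12 genes that passed the test in COM against NC or COM+Met against COM, samples 1 to 6 of each group from left to right, with a line at the group mean. Pfkfb3, Hk3 and Pfkl are higher and Aldoc, Ldhb, Pdk1 and Rpia lower in every COM sample than in any NC sample, and Slc2a6 and Eno2 are highest in COM+Met.

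From aldolase to pyruvate kinase, 1 of 9 rose, 2 fell and 6 did not pass, where 12.7% of all genes rose and 40.6% fell. Aldoc, the aldolase isoform best known from brain, fell most. It ranged from 38.6 to 49.1 FPKM in NC (median 43.1) and from 1.92 to 20.7 in COM (median 11.96). All COM samples were below all NC samples, but COM-1 to COM-3 kept 19.3 to 20.7 FPKM while COM-4 to COM-6 had 1.92 to 4.64. Aldoc fell by 2.19 on the log2 scale, or by 1.92 relative to all genes (SE 0.46, limma, adjusted p = 0.0017), by 1.08 from COM-1 to COM-3 alone and by 3.30 from COM-4 to COM-6 alone. Aldoa, the main aldolase, was among the most abundant genes described here, at 743 to 819 FPKM in NC and 802 to 951 in COM-1 to COM-5, and 380 in COM-6. Its mean change of -0.052 ± 0.20 (limma, adjusted p = 0.84) turned to 0.27 with size factors.

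Gapdh fell from 43.2 to 65.9 FPKM in NC (median 53.5) to 21.2 to 44.0 in COM (median 32.4). The change was -0.70 ± 0.17, or -0.44 relative to all genes (limma, adjusted p = 0.0034), or -0.39 with size factors (limma, adjusted p = 0.12), and the groups overlapped. This row needs care, because 73 other annotated genes, 3 of them in the table, carry a near-identical copy of at least 500 bases. Gapdh was listed at 53.2 FPKM in NC beside 775 for Aldoa and 865 for Pkm, and how reads shared with its copies were counted is not given in the sources used here. Eno2, the neuronal enolase, was low, at 0.257 to 1.01 FPKM in NC (median 0.635) and 0.580 to 2.43 in COM (median 1.497). It rose by 0.59 ± 0.18, or 0.86 relative to all genes, with overlapping groups (limma, adjusted p = 0.017), and did not pass without NC-5 and NC-6 (0.45, limma, adjusted p = 0.086). Tpi1, Pgk1, Pgam1, Eno1 and Pkm, the triose, phosphoglycerate and enolase steps and pyruvate kinase, had means of 148 to 865 FPKM in NC and 182 to 789 in COM. Their changes lay between -0.18 and 0.40, and none of the 5 passed the test. Pgk1, which makes the first ATP, came nearest (0.40 ± 0.16, limma, adjusted p = 0.051) and passed with size factors (0.72, limma, adjusted p = 0.0039). In these 5 genes COM-4 was the highest COM sample, and COM-6 the lowest in Pgk1, Pgam1, Eno1 and Pkm. Eno1 has a near-identical gene, Eno1b, at 29.9, 27.5 and 21.3 FPKM in NC, COM and COM+Met. Pgk1, Pgam1, Pkm, Gpi1, Ldha and Ldhb have near-identical pseudogenes. How reads shared with these copies were counted is not given either, which also limits the enolase and lactate dehydrogenase shares below.

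Ldha, which turns pyruvate into lactate, had 376 to 474 FPKM in NC (median 421) and 246 to 653 in COM (median 386). The COM samples spread to both sides of NC, with COM-4 highest and COM-6 lowest, and the change was -0.063 ± 0.19 (limma, adjusted p = 0.80), or 0.26 with size factors (limma, adjusted p = 0.30). Ldhb, the subunit that favours the reverse reaction, fell from 14.5 to 20.3 FPKM in NC (median 17.8) to 3.68 to 12.4 in COM (median 6.28). Its groups did not overlap, and it fell by 1.31 on the log2 scale, or by 1.04 relative to all genes (SE 0.27, limma, adjusted p = 0.0015), by 0.67 from COM-1 to COM-3 alone and by 1.95 from COM-4 to COM-6 alone. Pdk1, a kinase that shuts the pyruvate dehydrogenase complex and is a well-known HIF target, had 6.86 to 11.4 FPKM in NC (median 8.34) and 2.63 to 5.39 in COM (median 3.499). Pdk1 fell without overlap (-1.06 ± 0.16, or -0.79 relative to all genes, limma, adjusted p = 0.00014), and unlike Aldoc and Ldhb it was lower in COM-1 to COM-3 (2.63 to 3.20) than in COM-4 to COM-6 (3.80 to 5.39). Pdha1, the catalytic subunit of the same complex, also fell, from 34.2 ± 3.57 to 19.5 ± 3.06 FPKM (SD, n = 6), with no overlap (-0.79 ± 0.11, or -0.52 relative to all genes, limma, adjusted p = 0.00012). Pdk3, another kinase of the complex, had 18.03 and 16.25 FPKM and did not pass (-0.12 ± 0.22, limma, adjusted p = 0.65).

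In the HIF pathway, Hif1a lay between 30.4 and 40.2 FPKM in NC (median 35.1) and between 36.2 and 64.0 in COM (median 49.1). COM-4 and COM-5 (36.7 and 36.2) fell inside the NC range and the other 4 COM samples (48.5 to 64.0) lay above it. Hif1a rose by 0.42 ± 0.14, or 0.69 relative to all genes (limma, adjusted p = 0.027), but did not pass from COM-4 to COM-6 alone (0.32, limma, adjusted p = 0.16), nor without NC-5 and NC-6 (0.34, limma, adjusted p = 0.12). These are mRNA levels, and HIF-1α is mainly controlled as protein. Egln1 and Egln3 encode prolyl hydroxylases that act on it, and Egln3 is itself a known HIF target. Egln3 had 2.61 to 13.6 FPKM in NC, 1.36 to 1.98 in COM-1 to COM-3 and 9.14 to 15.3 in COM-4 to COM-6. These 2 sets of COM samples lay on opposite sides of the NC median, and the mean change was -0.20 ± 0.50 (limma, adjusted p = 0.75). Egln1 showed the same order on a smaller scale, with 6.42 to 7.38 FPKM in COM-1 to COM-3 and 10.5 to 13.7 in COM-4 to COM-6, around 8.39 to 10.7 in NC. Vhl had 10.9 and 13.5 FPKM and did not pass (0.28 ± 0.15, limma, adjusted p = 0.14), though it did with size factors (0.57, limma, adjusted p = 0.0012).

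**Figure D3:**
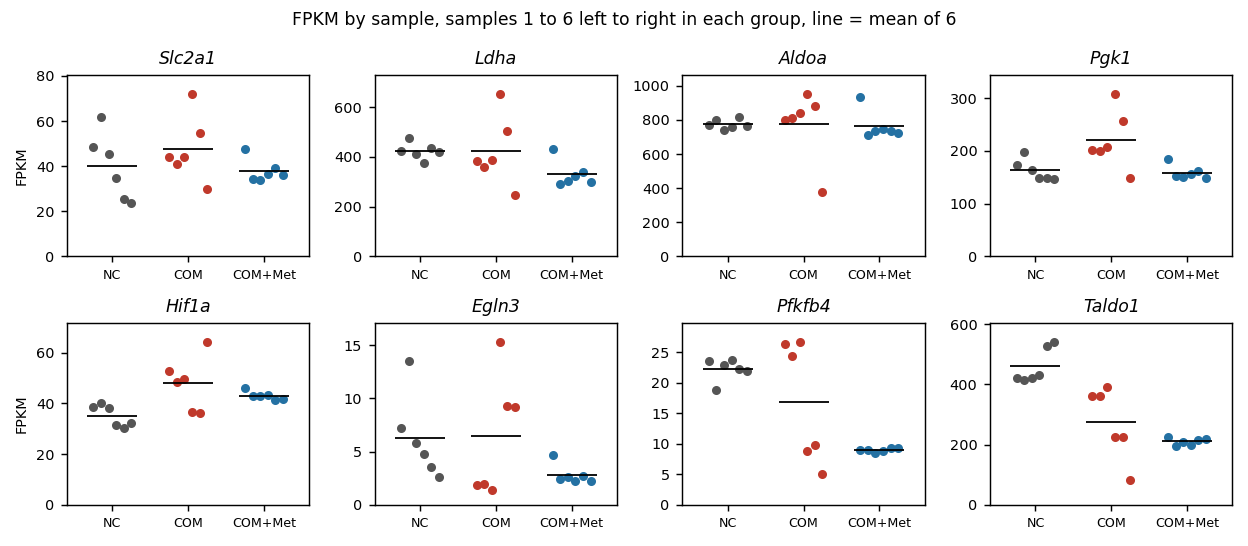
FPKM on linear axes from 0 for 8 genes, samples 1 to 6 of each group from left to right, with a line at the group mean. In COM, Pfkfb4 and Taldo1 are lower and Egln3 higher in samples 4 to 6 than in samples 1 to 3, and sample 6 is the lowest for Aldoa, Ldha, Pgk1 and Taldo1.

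The arms of the pentose phosphate pathway differed. G6pdx, whose enzyme makes NADPH at the entry of the oxidative arm, had 107 to 129 FPKM in NC (median 113) and 127 to 162 in COM (median 153). It rose by 0.38 ± 0.097, or 0.65 relative to all genes (limma, adjusted p = 0.0057), and only COM-6 (127) lay within the NC range. The next steps, Pgls and Pgd, did not pass the test. Pgls had 55.6 to 63.6 FPKM in NC, 36.2 to 52.0 in COM-1 to COM-5 and 7.61 in COM-6 (-0.83 ± 0.37, limma, adjusted p = 0.071). Without COM-6 the change of Pgls was -0.44 and passed (limma, adjusted p = 0.0030), as did the rises of Hk1 (0.29), Pgk1 (0.51) and Vhl (0.36). Pgd, the second source of NADPH, had 470 to 536 FPKM in NC, 443 to 598 in COM-1 to COM-5 and 172 in COM-6 (-0.19 ± 0.26, limma, adjusted p = 0.55).

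In the non-oxidative arm 3 of 4 fell, all without overlap of the groups. Over all genes 40.6% fell, and the groups did not overlap for 38.2%. Rpia, which makes ribose 5-phosphate, dropped from 13.96 to 22.3 FPKM in NC (median 14.6) to 2.36 to 7.22 in COM (median 5.99). Rpia fell by 1.47 on the log2 scale, or by 1.20 relative to all genes (SE 0.21, limma, adjusted p = 0.00011). Tkt, the transketolase, had 204 to 257 FPKM in NC (median 214) and 46.4 to 186 in COM (median 134), with 172 to 186 in COM-1 to COM-3, 92.8 and 94.8 in COM-4 and COM-5, and 46.4 in COM-6. Taldo1, the transaldolase, followed the same order, from 414 to 540 FPKM in NC (median 426) to 81.1 to 393 in COM (median 294). Tkt fell by 0.95 (SE 0.29, limma, adjusted p = 0.016) and Taldo1 by 0.90 (SE 0.32, limma, adjusted p = 0.032), or by 0.68 and 0.63 relative to all genes. From COM-1 to COM-3 alone the changes were -0.32 and -0.29, and from COM-4 to COM-6 alone -1.58 and -1.50. Without NC-5 and NC-6, the highest NC samples in both genes, neither passed (limma, adjusted p = 0.070 and 0.12), and Taldo1 did not pass with size factors (-0.58, limma, adjusted p = 0.083). Rpe, the epimerase that feeds the other branch, rose, from 14.2 to 17.5 FPKM in NC (median 14.6) to 20.7 to 26.5 in COM (median 22.0), without overlap and with nearly the same size from COM-1 to COM-3 alone (0.54) and COM-4 to COM-6 alone (0.54) (0.54 ± 0.089, limma, adjusted p = 0.00030). Rpe shares a stretch of sequence with the neighbouring gene Kansl1l, so some of its reads are uncertain. The same libraries had lower proliferation markers in COM, as given above.

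**Figure D4:**
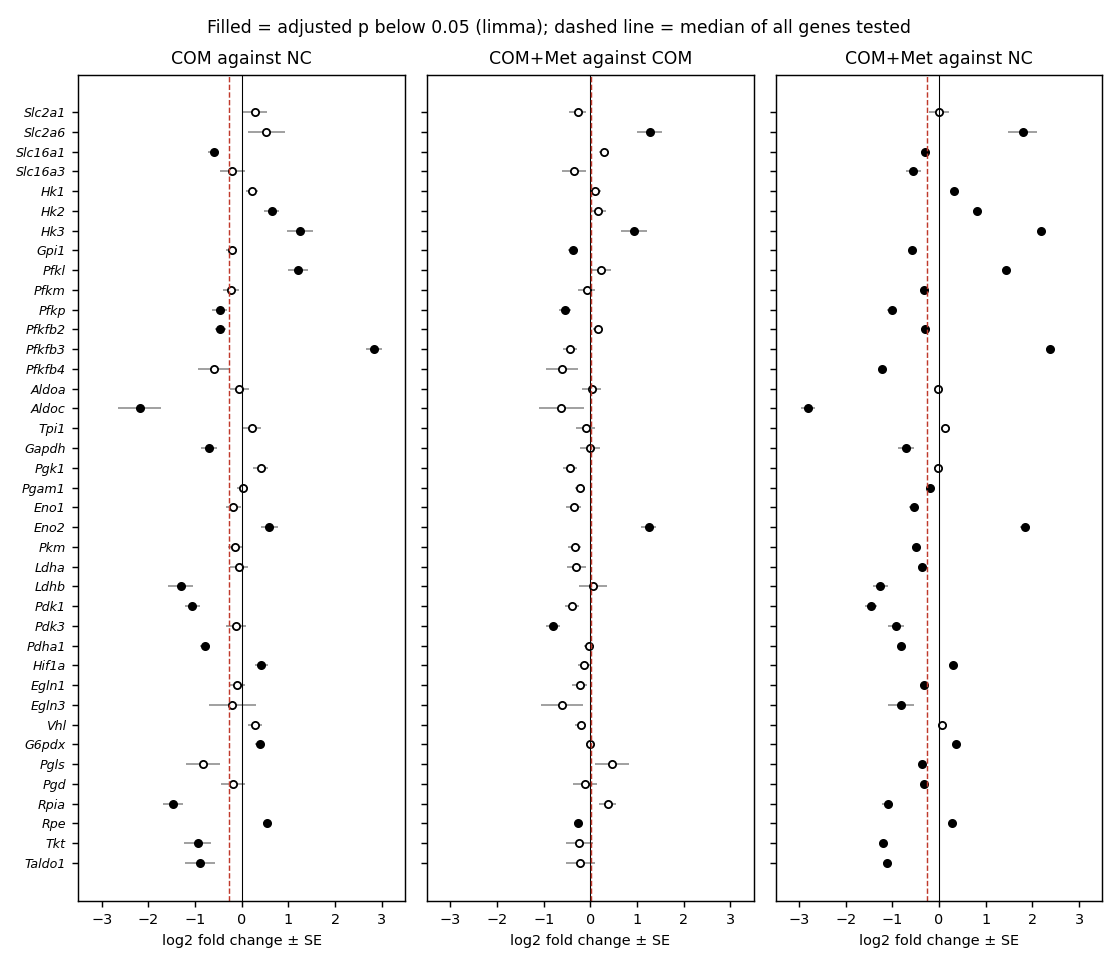
Change in mean log2(FPKM + 1) with its standard error for the 39 tested genes in the 3 comparisons, filled where the limma adjusted p was below 0.05, with a dashed line at the median of all genes tested (-0.27, 0.0033 and -0.26). Pfkfb3 is farthest right in COM against NC, Slc2a6 and Eno2 in COM+Met against COM, and Aldoc is farthest left in both comparisons with NC.

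The second comparison, COM+Met against COM, asks what Met on the BMDMs changed under the same crystal exposure of the TECs. Few of these genes passed. Slc2a6, Eno2 and Hk3 rose, Pdk3, Pfkp, Gpi1 and Rpe fell, and the other 32 did not pass the test. That is 3 of 39 higher and 4 lower, where 5.77% and 7.58% of the 10364 genes tested were higher and lower. With size factors the counts were 4 and 3, beside 882 and 949 of the 10364 genes. The groups did not overlap for 5 members, against 11.2% of all genes. The COM+Met samples were close to each other, so most of the spread in this comparison came from COM. From COM-1 to COM-3 alone 7 members were higher and 18 lower in COM+Met, beside 1850 and 4499 of all 10373 genes tested. From COM-4 to COM-6 alone 5 were higher and 6 lower, beside 1646 and 793 of all 10211 genes tested. The counts of members and of all genes thus both depend on which COM samples they are measured against. Without COM-6, 7 members passed that otherwise did not, all as lower: Slc16a3, Pfkfb4, Pgk1, Eno1, Pkm, Pgd and Taldo1 (changes of -0.39 to -0.88). Over all genes, 1652 of 10363 were lower without COM-6, against 786 of 10364 with it.

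Slc2a6 lay between 268 and 305 FPKM in COM+Met (median 274), against 48.7 to 194 in COM (median 112). The groups did not overlap, and Slc2a6 rose by 1.27 ± 0.27 (limma, adjusted p = 0.0084), by 1.33 against COM-1 to COM-3 alone and by 1.20 against COM-4 to COM-6 alone. Eno2 had 4.29 to 5.59 FPKM in COM+Met (median 4.56), against 0.580 to 2.43 in COM (median 1.497). It rose without overlap by 1.25 ± 0.16 (limma, adjusted p = 0.00047), and passed in every alternative fit in which it was tested. Hk3 lay between 210 and 230 FPKM in COM+Met (median 217), level with COM-4 and COM-5 and above the other 4 COM samples. Its rise of 0.93 ± 0.27 just passed (limma, adjusted p = 0.040), and against COM-4 to COM-6 alone it was 0.49 (limma, adjusted p = 0.23).

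Pdk3 lay between 8.04 and 9.47 FPKM in COM+Met (median 8.41) and between 11.0 and 19.3 in COM (median 18.5). COM-4 and COM-5, at 11.0 each, were the nearest, and Pdk3 fell by 0.80 on the log2 scale without overlap (SE 0.15, limma, adjusted p = 0.0044). Pfkp had 14.7 to 16.1 FPKM in COM+Met (median 15.8) and 17.8 to 30.0 in COM (median 24.6). It fell without overlap by 0.54 (SE 0.12, limma, adjusted p = 0.012), by 0.78 against COM-1 to COM-3 alone and by 0.31 against COM-4 to COM-6 alone. Rpe had 16.7 to 20.5 FPKM in COM+Met (median 19.1), below the 20.7 to 26.5 of COM, but its fall of 0.26 only just passed (SE 0.081, limma, adjusted p = 0.049) and did not with size factors (limma, adjusted p = 0.14). Gpi1 fell from 127 to 97.1 FPKM with overlapping groups (-0.37 ± 0.11, limma, adjusted p = 0.038), and did not pass against COM-4 to COM-6 alone (-0.31, limma, adjusted p = 0.11).

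The genes that had changed most from NC to COM were not brought back to the NC level in COM+Met. Pfkfb3 stood at 36.9 to 42.5 FPKM in COM+Met (median 40.7), below most COM samples but above the 8.28 of the highest NC sample. Its change from COM was -0.44 ± 0.15 (limma, adjusted p = 0.077), and it passed without COM-1 (-0.52, limma, adjusted p = 0.045) and against COM-4 to COM-6 alone (-0.78, limma, adjusted p = 0.00026). Aldoc had 4.45 to 9.54 FPKM (median 4.84), near the 4.58 and 4.64 of COM-4 and COM-5 except in COM+Met-1 (9.54), and its change from COM was -0.62 ± 0.48 (limma, adjusted p = 0.42), with the sign turned to 0.49 against COM-4 to COM-6 alone. Pfkfb4 (8.46 to 9.29 FPKM), Tkt (88.4 to 105) and Taldo1 (196 to 225) likewise lay at the level of COM-4 and COM-5 and below COM-1 to COM-3. Hif1a had 41.3 to 46.1 FPKM (median 42.9) and did not pass (-0.13 ± 0.13, limma, adjusted p = 0.55), and G6pdx had 145 to 156 (median 149) and did not pass (-0.012 ± 0.080, limma, adjusted p = 0.94). Hk2 had 24.7 to 32.0 FPKM (median 25.8) and a change of 0.17 ± 0.15 (limma, adjusted p = 0.50). Gapdh had 20.6 to 48.6 FPKM (median 29.9), with a change of -0.0086 ± 0.21 that turned to 0.010 with size factors. Ldha had 290 to 434 FPKM (median 313), highest in COM+Met-1, and a change of -0.30 ± 0.20 (limma, adjusted p = 0.36). Ldhb had 3.5 to 8.46 FPKM (median 7.54), Pdk1 1.78 to 3.14 (median 2.55) and Rpia 6.55 to 7.91 (median 7.18), none of which passed against COM. Pfkl had 44.5 to 65.8 FPKM (median 49.1) and did not pass either (0.23 ± 0.22, limma, adjusted p = 0.54).

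The third comparison, COM+Met against NC, shares its samples with the other 2. Here 10 of 39 rose and 24 fell, where 19.3% and 55.9% of the 10786 genes tested did so. With size factors the counts were 14 and 12, beside 3878 and 3743 of the 10786 genes. That scaling ended 12 of the 24 lower calls, and over all genes the lower calls went from 6034 to 3743. Pgam1 and Pgd turned to a positive sign (0.11 and 0.0022), and Slc16a1, Slc16a3, Pfkm, Pfkfb2, Gapdh, Pkm, Ldha, Egln1, Egln3 and Pgls kept a negative sign (-0.041 to -0.57) but did not pass (limma, adjusted p = 0.052 to 0.70). The groups did not overlap for 23 members, against 57.6% of all genes. The largest rises were those of Pfkfb3 (2.39 ± 0.086), Hk3 (2.18 ± 0.052), Eno2 (1.84 ± 0.11), Slc2a6 (1.79 ± 0.31) and Pfkl (1.44 ± 0.092), with limma adjusted p between 3.22e-12 and 0.00016. The largest falls were those of Aldoc (-2.81 ± 0.14), Pdk1 (-1.46 ± 0.12), Ldhb (-1.26 ± 0.16), Pfkfb4 (-1.22 ± 0.054) and Tkt (-1.19 ± 0.066), with limma adjusted p between 6.22e-10 and 1.04e-05. Slc2a1, Aldoa, Tpi1, Pgk1 and Vhl did not pass, with changes between -0.031 and 0.13. Of these, Aldoa, Tpi1, Pgk1 and Vhl passed with size factors, each as higher.

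Because scaling moves all isoforms of a family alike, each isoform was also expressed as a share of its family's summed FPKM, a measure that was chosen after the values were seen. Shares were compared by two-sided exact permutation tests over the samples, 27 in all, for which the smallest p that 6 against 6 samples can give is 0.00216 (adjusted p = 0.0039). Among hexokinases, Hk3 took 56.4% ± 2.7 in NC, 69.6% ± 6.2 in COM and 80.2% ± 0.41 in COM+Met (SD, n = 6). No sample of one group overlapped with another, and all 3 differences reached that smallest p. Hk1 gave way most, from 26.0% to 15.8% and 9.99%. Pfkl took 33.2% ± 2.8 of phosphofructokinase-1 in NC and 61.6% ± 10.1 in COM, without overlap and at the smallest exact p, and 73.2% ± 2.5 in COM+Met, which was not past the threshold against COM (exact p = 0.046, adjusted p = 0.061). The main isoform by FPKM was thus Pfkp in NC and Pfkl in both other groups.

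Pfkfb3 made up 20.4% ± 3.7 of the PFKFB family in NC, 72.8% ± 14.4 in COM and 75.7% ± 0.54 in COM+Met, and both differences from NC were without overlap. Within COM its share was 58.4% at the lowest and 87.5% at the highest, and against COM-4 to COM-6 alone COM+Met was 10.2 percentage points lower rather than higher (difference -10.2). Slc2a6 took 66.9% ± 6.4 of the glucose carriers in NC, 71.2% ± 5.1 in COM and 87.9% ± 1.0 in COM+Met, which was above every COM sample (exact p = 0.00216, adjusted p = 0.0039). Aldoc went from 5.33% of aldolase in NC to 1.45% in COM and 0.705% in COM+Met, and Eno2 from 0.137% of enolase to 0.344% and 1.48%, with every Eno2 sample of COM above every NC sample once it is read as a share. Ldhb went from 3.99% of lactate dehydrogenase to 1.84% and 2.11%. For the kinases of pyruvate dehydrogenase, Pdk3 took 66.0% ± 11.4, 80.5% ± 8.2 and 77.4% ± 2.9 beside Pdk1, and its difference between COM and NC had an adjusted p of 0.034 by the exact test, with NC-5 and NC-6 at 51.0% and 51.7% and the other 4 NC samples at 72.9% to 73.7%. Slc16a1 had 6.50%, 4.17% and 6.88% beside Slc16a3, lower in COM than in COM+Met (exact p = 0.013, adjusted p = 0.020).

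**Figure D5:**
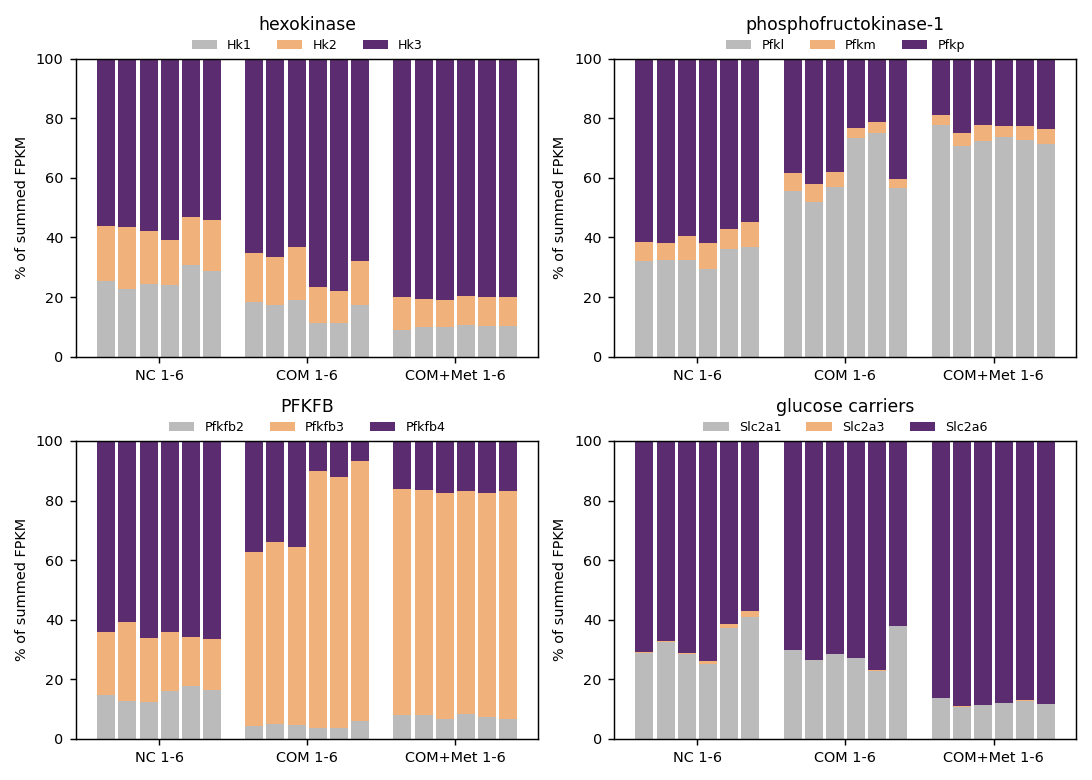
Shares of each family's summed FPKM (percent, stacked to 100) in each of the 18 samples for hexokinase, phosphofructokinase-1, PFKFB and the glucose carriers. Hk3 grows from NC to COM to COM+Met, Pfkl replaces Pfkp as the main isoform, Pfkfb3 replaces Pfkfb4, and Slc2a6 is largest in COM+Met.

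Other genes of the same pathways, listed by hand, were read beside these. In COM against NC, 2 of 23 other genes of glycolysis and pyruvate handling rose and 11 fell, with a median of -0.26 against -0.27 over all genes, of which 12.7% rose and 40.6% fell. The 2 that rose were Slc2a9, a urate and hexose carrier (0.81 ± 0.21, limma, adjusted p = 0.0055), and Gpd2, the mitochondrial glycerol phosphate dehydrogenase (0.72 ± 0.21, limma, adjusted p = 0.010). Those that fell include Mpc2, a subunit of the mitochondrial pyruvate carrier (-1.13 ± 0.26), Pdk2 (-0.95 ± 0.20), Pdhb (-0.41 ± 0.093) and the phosphatase Pdp2 (-0.76 ± 0.12). Relative to all genes these 4 changes were -0.86, -0.68, -0.14 and -0.49, and Dlat, Dld and Pdhx, other subunits of pyruvate dehydrogenase, did not pass (limma, adjusted p = 0.11, 0.34 and 0.12). Of 11 other pentose phosphate genes 3 rose and 5 fell, with a median of -0.24. Pgm1, which links glucose 1-phosphate to glucose 6-phosphate, rose from 14.2 to 31.0 FPKM (1.06 ± 0.11, limma, adjusted p = 9.03e-06), and Prps1, which makes the activated ribose of nucleotide synthesis, fell from 7.69 to 3.20 FPKM (-1.03 ± 0.20, limma, adjusted p = 0.00097). Of 9 glycogen genes 2 rose and 3 fell, with a median of -0.31. The 2 were the glycogen synthase Gys1 (0.61 ± 0.12) and the branching enzyme Gbe1 (1.18 ± 0.16).

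Of 9 other HIF pathway genes, 4 fell in COM and none rose by limma, nor at an unadjusted p below 0.05, since all 9 changes were negative (median -0.33, or -0.056 relative to all genes). Epas1, which encodes HIF-2α, went from 2.81 to 0.113 FPKM (-1.65 ± 0.24, or -1.38 relative to all genes, limma, adjusted p = 0.00013). Arnt, the partner of both HIF-α proteins, went from 19.3 to 13.6 FPKM (-0.48 ± 0.095, or -0.21 relative to all genes, limma, adjusted p = 0.0011). Among 24 known HIF targets outside glycolysis, 6 rose, 4 fell and 14 did not pass, with a median of 0.16, or 0.43 relative to all genes. Over all genes 12.7% rose and 40.6% fell. Nos2, the inducible nitric oxide synthase, had 0.0442 to 3.55 FPKM in NC (median 2.15) and 4.42 to 260 in COM (median 87.7). Il1b, an inflammatory cytokine, had 4.18 to 209 FPKM in NC (median 89.8) and 455 to 609 in COM (median 549). P4ha1, a collagen prolyl hydroxylase, had 9.84 to 13.7 FPKM in NC and 18.8 to 75.4 in COM. The other 3 that rose were Vegfa (1.23 ± 0.44), Narf (0.92 ± 0.13) and Hmox1 (0.97 ± 0.35), and the 4 that fell were Tfrc (-1.71 ± 0.28), Bnip3l (-0.77 ± 0.14), Higd1a (-0.69 ± 0.18) and Rora (-0.35 ± 0.13). Several of those that rose are also known targets of inflammatory signals, so the list is not specific to HIF.

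In COM+Met against COM, 5 of the 24 HIF targets fell and none rose by limma, nor at an unadjusted p below 0.05, with a median of -0.17 against 0.0033 over all genes, of which 7.58% fell and 5.77% rose. Il1b had 159 to 184 FPKM in COM+Met (median 171), inside the wide range of NC and below that of COM. From COM it fell by 1.64 on the log2 scale without overlap (SE 0.099, limma, adjusted p = 5.61e-06). Against NC it was still higher in COM+Met, at means of 170 and 86.8 FPKM, with overlapping groups (1.91 ± 0.80, limma, adjusted p = 0.046). Ndrg1, Ddit4 and Mxi1 fell by 1.07, 1.06 and 0.97 with overlapping groups. Vegfa, P4ha1, Hmox1 and Nos2 did not pass in this comparison and stood at means of 10.6, 48.9, 635 and 77.2 FPKM in COM+Met. Of the 9 glycogen genes 4 fell by limma, namely Gys1, Gbe1, Ugp2 and the liver phosphorylase Pygl, and none rose, with Pygb alone higher at an unadjusted p below 0.05 (median of the 9, -0.28). Txnip, an arrestin that limits glucose uptake and responds to glucose, fell from 69.4 to 24.0 FPKM (-1.49 ± 0.095, limma, adjusted p = 5.69e-06). In the other lists, 2 of 23 genes of glycolysis and pyruvate handling rose and 2 fell, as did 1 and 1 of 10 pentose phosphate genes, and 1 of 8 HIF pathway genes fell.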

How the data were processed

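RNA of 18 BMDM samples (NC, COM and COM+Met, 6 each) was sequenced after Illumina TruSeq preparation from total RNA. The authors deposited FPKM, 1 value per gene and sample, and their processing notes list Bowtie 0.12.2 along with 2 mouse builds, mm8 and mm9, with no role for any of them. Neither a quantifier nor an annotation is named there (not given in the sources used here), and read depth is unknown. Summed FPKM ranged from 380731 to 449186.

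A gene was tested when its mean in the 12 samples of a comparison reached 1 FPKM, on log2(FPKM + 1) with limma 3.58.1 in R 4.3.3 (eBayes with a trend, Benjamini-Hochberg over all genes tested). Each comparison used its own 12 samples, and comparisons share groups. Single values, such as shares of a family's FPKM, were compared by two-sided exact permutation tests. The code was tested on simulated data. Alternatives were another pseudocount, filter, scaling, a replicate block, sample weights, all 18 samples in 1 fit, and leaving out samples.

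The members and lists were chosen with earlier results of these data known. All 41 members are accounted for, and sample values are given for up to 6 rises and falls that passed the test without overlap in COM against NC and COM+Met against COM, and always for Slc2a1, Hk2, Pfkfb3, Gapdh, Ldha, Hif1a, G6pdx and Taldo1. Other genes with sample values, the family shares, the promoter windows and the search for near-identical copies (BLAST 2.17.0, at least 95% identity over at least 500 bases of GENCODE M21 transcripts) were added after values were seen. Single results for 2 genes of the other lists are not reported here.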

Additional observations from a re-analysis of the deposited data

Results flagged for a closer look

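A sample was far from the other 5 of its group in 19 of 116 groups tested by the size of its gap (Dixon, with the 95% critical value), where chance alone gives about 1 in 20. Of these, 9 were COM+Met-1, 8 COM-6, and 1 each COM+Met-4 and NC-2. All values are FPKM. COM-6 lay below the other 5 samples for Pfkm (1.39, others 3.12 to 4.55), Aldoa (380, others 802 to 951), Eno1 (249, others 430 to 532), G6pdx (127, others 149 to 162), Pgls (7.61, others 36.2 to 52), Pgd (172, others 443 to 598) and Taldo1 (81.1, others 225 to 393). COM-6 lay above the other 5 samples for Pfkfb2 (4.54, others 3.02 to 3.49). COM+Met-1 lay below the other 5 samples for Ldhb (3.5, others 6.23 to 8.46). COM+Met-1 lay above the other 5 samples for Hk2 (32, others 24.7 to 26.8), Aldoa (936, others 710 to 747), Aldoc (9.54, others 4.45 to 4.98), Tpi1 (220, others 143 to 160), Eno1 (417, others 289 to 317), Pkm (759, others 551 to 616), Egln1 (9.71, others 6.79 to 7.45) and Egln3 (4.69, others 2.2 to 2.66). COM+Met-4 lay below the other 5 samples for Slc16a1 (2.12, others 2.56 to 2.85). NC-2 lay below the other 5 samples for Pfkfb4 (18.9, others 22 to 23.7).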

How the results depend on the processing

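Among 1387 changes of these genes under alternatives other than leaving out a single sample, 85.4% kept their sign and their side of the threshold, 74 turned sign, 48 lost the call and 80 gained it. Of the 19 members called in COM against NC, 11 were called under every alternative and 8 were lost under at least 1, with no change of sign. Of the 7 called in COM+Met against COM, 4 were called under every alternative (Slc2a6, Eno2, Pfkp and Pdk3). Of the 34 called in COM+Met against NC, 22 were, and 5 changed sign under at least 1. The cause of these differences was not tested. Counts over all genes moved under these settings too, as given above for size factors and for COM samples left out. With sample weights in COM+Met against COM, 2041 genes were higher and 4639 lower, of 10364. With the replicate block these counts were 288 and 456. The values that turned are changes in log2(FPKM + 1) unless given as percentage points of a share, and alternatives on shares were chosen after seeing the data. With size factors, COM against NC, 7 members were lower, and the sign turned for Slc16a3 (0.11), Gpi1 (0.10), Pfkm (0.0077), Aldoa (0.27), Eno1 (0.14), Pkm (0.17), Ldha (0.26), Pdk3 (0.18), Egln1 (0.20), Egln3 (0.082) and Pgd (0.13). With size factors, COM+Met against COM, the sign turned for Gapdh (0.010) and G6pdx (0.0079). With size factors, COM+Met against NC, 12 members were lower, and the sign turned for Aldoa (0.29), Pgk1 (0.28), Pgam1 (0.11) and Pgd (0.0022). With sample weights, COM against NC, the sign turned for Slc2a1 (-0.068), Pfkfb4 (0.12), Aldoa (0.10), Tpi1 (-0.060) and Pgd (0.16). With sample weights, COM+Met against COM, 7 members were higher and 22 members were lower, and the sign turned for Aldoa (-0.14), Tpi1 (0.17), Gapdh (0.22), Ldhb (-0.44), Egln1 (0.0076), Egln3 (0.29) and Pgls (-0.085). With sample weights, COM+Met against NC, the sign turned for Slc2a1 (-0.31) and Vhl (-0.041). Without NC-5 and NC-6, COM against NC, the sign turned for Slc2a1 (-0.022) and Slc2a6 (-0.0049). Without NC-5 and NC-6, COM+Met against NC, the sign turned for Slc2a1 (-0.30) and Vhl (-0.078). With quantile normalisation, COM against NC, the sign turned for Pfkm (0.085), Pdk3 (0.087), Egln1 (0.16) and Egln3 (0.089). With quantile normalisation, COM+Met against COM, the sign turned for Gapdh (0.028). With quantile normalisation, COM+Met against NC, the sign turned for Slc16a1 (0.054), Pfkm (0.028), Pfkfb2 (0.024) and Pgk1 (0.014). Without COM-4 to COM-6, COM against NC, the sign turned for Pfkm (0.044), Pfkfb4 (0.21), Aldoa (0.077), Tpi1 (-0.12), Pgam1 (-0.044), Pdk3 (0.11) and Pgd (0.22). Without COM-4 to COM-6, COM+Met against COM, 7 members were higher and 18 members were lower, and the sign turned for Aldoa (-0.11), Tpi1 (0.25), Gapdh (0.17), Ldhb (-0.59), Egln1 (0.086), Egln3 (0.45) and Pgls (-0.093), and the share difference turned for Ldhb (-0.643 points). Without COM-1 to COM-3, COM against NC, the sign turned for Ldha (0.038), Egln1 (0.22) and Egln3 (0.87). Without COM-1 to COM-3, COM+Met against COM, 5 members were higher, and the sign turned for Hk1 (-0.0017), Pfkm (0.19), Pfkfb4 (0.20), Aldoc (0.49), Pdha1 (0.16), Vhl (0.051), G6pdx (0.034), Pgd (0.29), Tkt (0.38) and Taldo1 (0.39), and the share difference turned for Pfkfb3 (-10.2 points), Aldoc (0.204 points) and Pdk3 (3.21 points). With the replicate block, COM+Met against COM, 2 members were lower. With values rescaled to the same sum (TPM), COM+Met against COM, the sign turned for Aldoa (-0.022). With values rescaled to the same sum (TPM), COM+Met against NC, the sign turned for Slc2a1 (-0.045). With a pseudocount of 5, COM+Met against NC, the sign turned for Slc2a1 (-0.0054). Leaving out single samples moved the count of members higher and lower from 6 to 11 and from 9 to 12 in COM against NC, from 2 to 3 and from 2 to 11 in COM+Met against COM, and from 10 to 10 and from 23 to 24 in COM+Met against NC. The 11 came without COM-6, and 2 without COM-2, COM-3 or any 1 of COM+Met-2 to COM+Met-6. With single samples left out, 1263 to 1687 of all genes were higher and 3912 to 4824 lower in COM against NC. The all-gene counts were 393 to 1101 and 541 to 1652 in COM+Met against COM, and 1989 to 2108 and 5886 to 6023 in COM+Met against NC. Over the same fits, COM against NC, the sign turned in the range of Slc16a3 from -0.35 to 0.019, Aldoa from -0.12 to 0.14, Pgam1 from -0.043 to 0.054, Ldha from -0.20 to 0.080, Egln3 from -0.50 to 0.055 and Pgd from -0.28 to 0.076. Over the same fits, COM+Met against COM, the sign turned in the range of Aldoa from -0.17 to 0.093, Tpi1 from -0.18 to 0.059, Gapdh from -0.13 to 0.11, Ldhb from -0.088 to 0.22, Pdha1 from -0.083 to 0.015 and G6pdx from -0.061 to 0.0091. Over the same fits, COM+Met against NC, the sign turned in the range of Slc2a1 from -0.13 to 0.14 and Pgk1 from -0.075 to 0.026. The share of Slc16a1 in COM+Met against NC ranged from -0.0637 to 1.08 points. Samples with the same replicate number did not deviate together (correlations of -0.22 to 0.057, and 1 of 18 correlated best with its own number), so the numbers were not read as pairs, and the replicate block left 2 members lower in COM+Met against COM. FPKM hold no read counts, so how depth limits the low genes, such as Eno2, is unknown.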
